A study of Mus musculus with 12 samples.

Results

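Malat1, Neat1, Meg3, Miat, Gas5, Rian, Pvt1 and Dleu2 are 8 long noncoding RNA genes that were taken by their mouse symbols from the 54838 genes counted in spinal cord preparations enriched for oligodendroglial cells. All 8 were present in the count files, all 8 passed the filter on low counts that left 31109 genes, and they were among 7706 long noncoding genes that passed it. RNA was sequenced in 12 libraries from mice at P60, 3 in each of 4 groups. The control mice were Olig1+/+;Tet1fl/fl (wildtype in the labels) and the Tet1 mutants were Olig1cre/+;Tet1fl/fl (Tet1 cKO in the labels), so both genotypes carried the floxed alleles of Tet1, an enzyme that converts 5-methylcytosine in DNA to 5-hydroxymethylcytosine. In each genotype, unlesioned tissue was compared with tissue at 4 days after an injection of lysolecithin (LPC), a detergent that strips myelin, into the ventrolateral white matter (4dpl), which asks how the adult cord responds to demyelination with and without Tet1. The Cre driver acts throughout life and only in cells of the Olig1 lineage, and the cells were enriched on a Percoll gradient but not sorted, so RNA of other cells was sequenced too. The paper states that mice of either sex were used, and unlesioned tissue was the opposite side of the cord of lesioned mice. The sources used here do not name the mouse behind each library, so the p-values measure only the spread between these libraries, and in bulk RNA a lower share of a cell type cannot be told apart from less of the RNA in each cell.

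The 8 RNAs work in different ways. Malat1 is retained in the nucleus and gathers in nuclear speckles, bodies rich in splicing factors, whereas the long form of Neat1 is the scaffold of paraspeckles, bodies built with the proteins NONO and SFPQ. Meg3 and Rian are expressed from the maternal copy of the imprinted Dlk1-Dio3 cluster on chromosome 12 and are abundant in neurons, and Miat (also called Gomafu) is a nuclear RNA of neurons that binds splicing factors. Gas5 carries small nucleolar RNAs (snoRNAs) in its introns, and its spliced RNA is degraded by nonsense-mediated decay and can bind the glucocorticoid receptor. Pvt1 lies beside the growth regulator Myc, and Dleu2 is the host of miR-15a and miR-16-1, microRNAs that restrain the cell cycle.

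Sequences that set several of these RNAs apart are printed here, 5′ to 3′ on the strand of the gene. Those of Malat1 and Neat1 are shown for the 3′ end that the 2 neighbours share, and that of Miat for the letters of a splicing factor described later. Mature Malat1 and the long form of Neat1 have no poly(A) tail. Each ends in a triple helix in which 2 U-rich stretches (written as T) clasp an A-rich stretch. The capitals mark these stretches. The Malat1 stretch is bases 6606 to 6691 of transcript Malat1-201 (minus strand, GRCm38, chr19:5795982-5796067), and the Neat1 stretch is the last 90 bases of Neat1-201 (minus strand, GRCm38, chr19:5824708-5824797).
Malat1: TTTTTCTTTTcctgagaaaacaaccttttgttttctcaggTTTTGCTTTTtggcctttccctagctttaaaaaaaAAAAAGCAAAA
Neat1: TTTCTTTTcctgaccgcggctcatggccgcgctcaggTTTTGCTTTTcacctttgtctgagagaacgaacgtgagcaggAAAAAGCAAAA
The A-rich run AAAAAGCAAAA was shared by both and was found on the sense strand of 77 of 18930 long noncoding transcripts of GENCODE M21 (0.41%).

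Miat carries repeats of TACTAAC, the letters that the splicing factor SF1 recognizes at branch points. The capitals mark 3 of them in bases 5176 to 5236 of Miat-201 (minus strand, GRCm38, chr5:112216752-112216812).
Miat: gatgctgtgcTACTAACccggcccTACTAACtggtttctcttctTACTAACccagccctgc
Miat-201 held 6 copies over its 8758 bases. At least 1 copy on the sense strand was found in 716 of the 18930 long noncoding transcripts (3.78%), and 6 or more in 3 transcripts (0.0158%).

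The start of Gas5 is shown because genes of the translation machinery and many snoRNA hosts begin in a run of pyrimidines, the 5′ terminal oligopyrimidine (TOP) start. In the RefSeq sequence (plus strand, GRCm38.p6, chr1:161035116-161035185, transcript start at base 161035166) the capitals mark TGACGTCA, the full cyclic AMP response element, and the first bases of the transcript.
Gas5: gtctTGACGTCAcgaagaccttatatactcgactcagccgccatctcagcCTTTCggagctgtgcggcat
TGACGTCA began 46 bases before this start of Gas5 and 57 bases before that of Meg3. Searched on both strands of windows from 250 bases before to 50 after a start, it was held by 588 of 32851 RefSeq windows (1.79%). A C followed by at least 4 pyrimidines at the start was found in 823 windows (2.51%), Gas5 and Miat among them, and in 3 of the 17 listed snoRNA hosts that have a window, namely Gas5, Snhg7 and Snhg8. Windows were found for 6 of the 8 RNAs, all but Neat1 and Pvt1.

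Of the 8 transcription units, 3 contain microRNA genes of RefSeq on the same strand: Dleu2 holds Mir15a and Mir16-1, Rian holds Mir341, Mir1188 and Mir370, and Meg3 holds Mir770 and Mir1906-1. The mature sequences below (GRCm38.p6) lie outside the exons of their hosts and were not measured by the counts; seeds, bases 2 to 8, are in capitals. miR-15a-5p (minus strand, chr14:61632075-61632096) and miR-16-5p (minus strand, chr14:61631936-61631957) shared the seed AGCAGCA, which 10 of 1679 mature names carry, while each of the 3 seeds from Rian was carried by 1 name only. The Rian sequences are on the plus strand at chr12:109618305-109618326, chr12:109611556-109611576 and chr12:109611841-109611861.
miR-15a-5p: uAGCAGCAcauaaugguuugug
miR-16-5p: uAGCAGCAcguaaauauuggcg
miR-370-3p: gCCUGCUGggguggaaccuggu
miR-341-3p: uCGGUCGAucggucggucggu
miR-1188-5p: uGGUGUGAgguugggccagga

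Libraries held between 34805086 and 67251544 counts on genes. In unlesioned tissue 40023 to 44516 genes had a count, and at 4dpl 33964 to 37516 had one. On the first principal component, which took 58.97% of the variance, all unlesioned libraries were apart from all of those at 4dpl. Control unlesioned replicate 1 was the unlesioned library nearest to 4dpl (-5.59, with the other 5 at -77.9 to -40.4), and it also stood highest on the second component. Tet1 itself, read over the whole gene and in all cells, was between 14.9 and 18.3 CPM (counts scaled by TMM to a library of 1000000) in the unlesioned controls and between 9.94 and 16.4 in the unlesioned mutants; these counts cover the whole gene and not the deleted exon alone, and lineages outside Olig1 keep the exon, so they are a weak check of the labels. Xist, an RNA of female cells, was at most 0.906 CPM in any library, and the sex of the mice behind these libraries was not tested. Markers of all the cell types listed were counted in every library. Summed over each list, mature oligodendrocyte markers ranged from 14760 to 70150 CPM, microglia and macrophage markers from 13136 to 34752, neutrophil markers from 14163 to 78393, erythroid markers from 10864 to 89103 and neuronal markers from 96.5 to 270.3. From unlesioned to 4dpl, over both genotypes, 9 of 10 microglia and macrophage markers, 4 of 8 markers of oligodendrocyte progenitors, 2 of 10 of mature oligodendrocytes and 2 of 8 of astrocytes rose, and 1 of 6 neutrophil markers fell (6 of 6 with DESeq2 or with the replicate block, a fit in which libraries of the same number share a term). A gene was called when its p-value was under 0.01 and its adjusted p-value under 0.05 in edgeR's quasi-likelihood test over all 31109 genes.

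Malat1 was by far the most abundant of the 8. Per kilobase of exon, its group means ran from 226 to 314 CPM per kb, above those of Gas5 (23.5 to 34.0), Neat1 (21.02 to 27.7) and Meg3 (14.1 to 24.3), whose ranges overlapped. Dleu2 followed at 2.73 to 3.19 CPM per kb and Pvt1 at 0.865 to 1.75, and Miat (0.466 to 0.818) and Rian (0.250 to 0.769) were lowest and overlapped each other. Among the 7706 long noncoding genes tested, ranked by mean log2 CPM, Malat1 was 1st, Neat1 3rd, Meg3 5th, Gas5 8th, Dleu2 32nd, Pvt1 127th, Rian 138th and Miat 269th. Together the 8 RNAs took between 12.6% and 23.3% of all long noncoding counts in a library, and Malat1 alone between 8.64% and 16.9%. Their raw counts were ample even for the scarcest, Miat, which had between 67 and 539 counts.

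**Figure D1:**
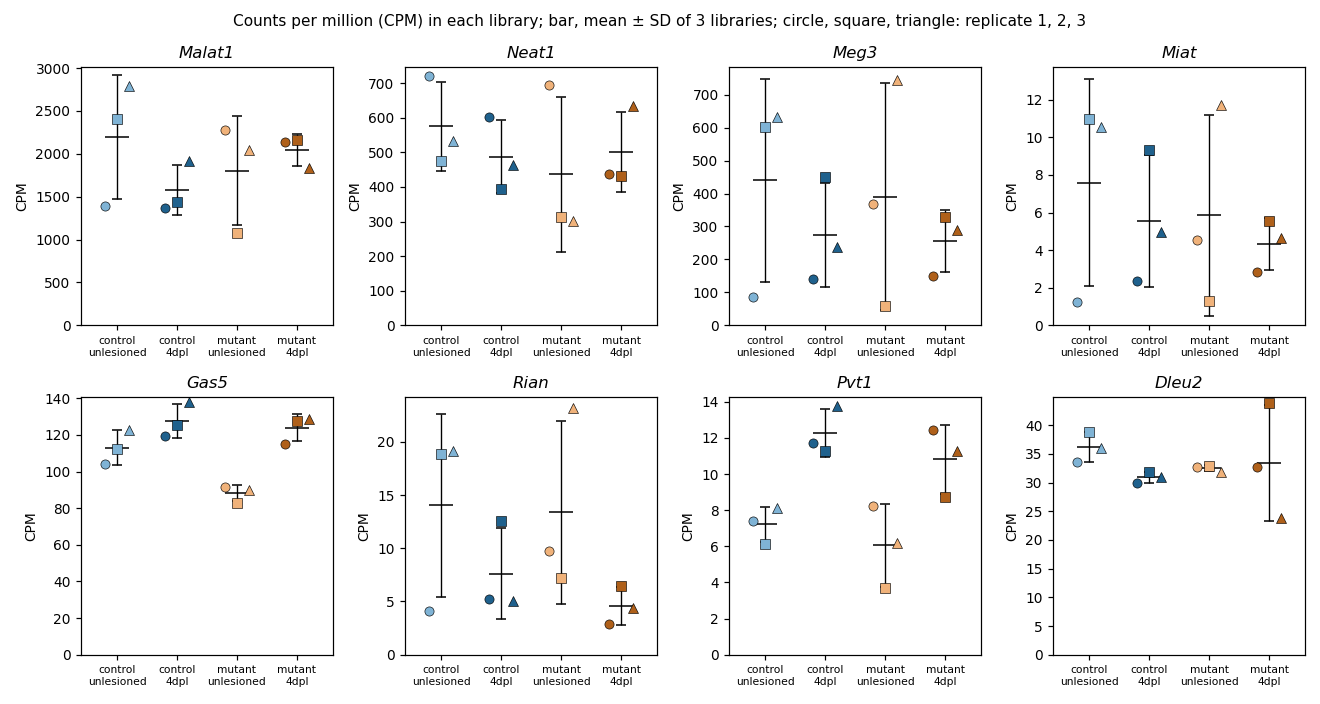
Level of each of the 8 long noncoding RNAs, in CPM scaled by TMM (y axis of each panel, starting at 0), in the 3 libraries of each of the 4 groups (x axis). Circles, squares and triangles are replicates 1, 2 and 3, and the bar with whiskers is the mean ± SD; Meg3, Miat and Rian spread several-fold within the unlesioned groups, while all 6 Pvt1 values at 4dpl lie above all 6 unlesioned ones.

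In the comparison of 4dpl with unlesioned tissue averaged over both genotypes, Pvt1 rose and Rian fell, and the other 6 RNAs did not pass the test. These 2 calls among 8 are read against 32.8% of all genes tested called in that comparison, 14.2% as higher and 18.6% as lower. Within the controls alone none of the 8 was called, where 10.1% of all genes were, and within the Tet1 mutants alone none was, where 0.135% were. At an unadjusted p under 0.05 in edgeR, 1 of the 8 passed in controls (Pvt1; 34.0% of all genes), 3 in mutants (Gas5, Rian and Pvt1; 33.8%) and 3 over both genotypes (Gas5, Rian and Pvt1; 52.0%). DESeq2 called 0 of the 8 in controls (22.5% of all genes), 1 in mutants (Rian; 17%) and 2 over both (Rian and Pvt1; 39.4%). The median log2 difference of the 8 was -0.12 over both genotypes, against -0.28 over all genes tested.

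Malat1 did not pass any test. In controls it stood at 1387, 2404 and 2787 CPM unlesioned and at 1373, 1443 and 1918 CPM at 4dpl. In the Tet1 mutants it stood at 2280, 1081 and 2050 CPM unlesioned and at 2142, 2160 and 1835 CPM at 4dpl. The groups overlapped in both genotypes, and the lowest value of all was that of mutant unlesioned replicate 2. The log2 difference was -0.47 (SE 0.35, adjusted p = 0.341) in controls and 0.18 (SE 0.35, adjusted p = 0.727) in mutants, and the difference between these differences was 0.66 (SE 0.50), not called. Of its exon bases, 13.8% are shared with other annotated genes, 453 of them with Gm37376 on the other strand.

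Neat1, in the same order of replicates, was at 720.4, 473.9 and 531.7 CPM in unlesioned controls and at 602.2, 395.4 and 463.4 CPM in controls at 4dpl. The mutants had 695.1, 311.9 and 302.9 CPM unlesioned and 437.2, 432.0 and 633.7 CPM at 4dpl. Here too the groups overlapped. The mean difference over both genotypes was -0.02 on the log2 scale (SE 0.24, adjusted p = 0.95). Although the 2 genes lie next to each other on chromosome 19, with 1 end of Malat1 at base 5802672 and the nearer end of Neat1 at base 5824708 (GRCm38, both on the minus strand), their log2 CPM followed each other little over the 12 libraries (Pearson's r = 0.15, a description over libraries that share condition and depth). Counts over the gene do not separate the short form of Neat1 from the long form that builds paraspeckles, since both start at the same place.

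The proteins of the bodies that these RNAs sit in were read beside them. Of 18 paraspeckle proteins, 11 rose over both genotypes and none fell, with a median log2 difference of 0.47. Rbm14, which is needed for paraspeckle assembly, rose by 0.84 (SE 0.19, adjusted p = 0.0064), and Nono, a core protein of the body, by 0.65 (SE 0.19, adjusted p = 0.0167). Hnrnpk, an RNA-binding protein that favours the long form of Neat1, rose by 0.78. Sfpq, the partner of Nono, was not called at -0.20 over both genotypes: its 3 control libraries at 4dpl were all below the 3 unlesioned ones, with a difference of -0.62, and its 3 mutant libraries at 4dpl were all above, with 0.21. The difference between these differences was 0.82 (SE 0.28) and was not called in the interaction test (adjusted p = 0.9999). The counts of the list are smaller under another scaling, 5 higher with RLE size factors and 8 with DESeq2, with none lower in either.

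Among 18 proteins of nuclear speckles, 6 rose and none fell, with a median of 0.39. Srsf6, a serine- and arginine-rich splicing factor, rose by 0.67 (SE 0.17, adjusted p = 0.0112), Srsf10, of the same family, by 0.57, Clk4, a kinase that phosphorylates such factors, by 0.54, and Ddx39b, an RNA helicase of mRNA export, by 0.48. With RLE size factors 2 of the 18 were called, again as higher. These counts were read against well-expressed protein-coding genes as a whole. Of 5429 with a mean log2 CPM of at least 5, 45.4% were called, 2449 as higher and 16 as lower. Their median was 0.50, which is above the medians of both lists. Some paraspeckle genes, such as Taf15 and Zc3h6, were scarcer. Of 5961 protein-coding genes between 2 and 5, 30.3% were called, with a median of 0.39. The 11 of 18 paraspeckle proteins called exceed both shares, and the 6 of 18 speckle proteins lie between them.

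The protein-coding neighbours of Malat1 and Neat1 were described in the same way. Of 7, 4 rose and none fell (median 0.54), among them Slc25a45, a mitochondrial carrier, by 0.56, Ltbp3, a binding protein of latent TGF-beta, by 0.54, and Dpf2, a chromatin-remodelling subunit, by 0.51. With RLE size factors 1 of the 7 was called. Frmd8, Ehbp1l1 and Tigd3 were not called, at 0.59, 0.32 and 0.05.

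**Figure D2:**
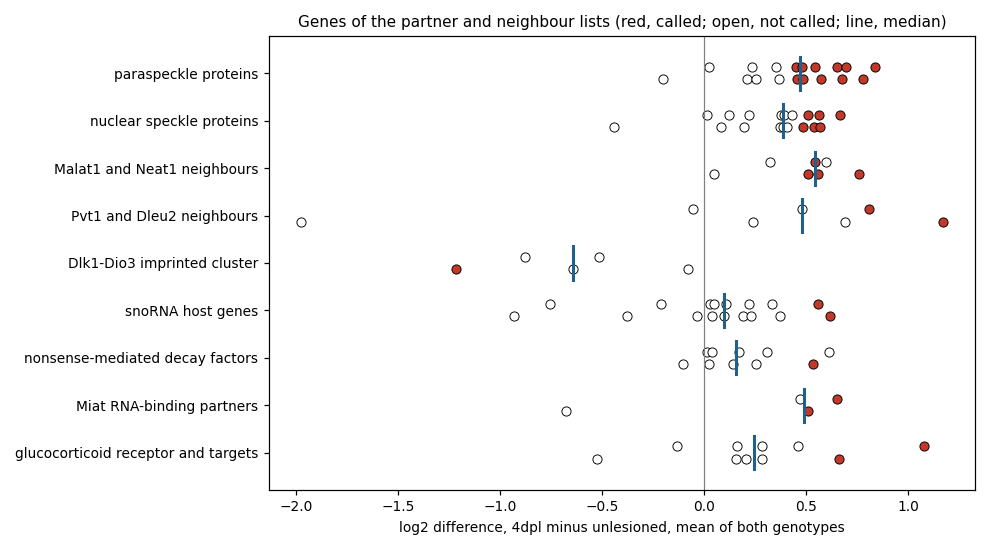
Log2 difference between 4dpl and unlesioned tissue, mean of both genotypes (x axis), for every tested gene of 9 lists that belong to the 8 RNAs (y axis). Red points are called genes, open points are not called and the vertical stroke is the median of the list, 0.47 for paraspeckle proteins, 0.39 for nuclear speckle proteins and -0.64 for the Dlk1-Dio3 cluster.

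Meg3, the most abundant RNA of the Dlk1-Dio3 cluster, varied far more between libraries than between conditions. It stood at 85.2, 602.7 and 632.5 CPM in unlesioned controls and at 139.7, 448.9 and 237.6 CPM in controls at 4dpl. The Tet1 mutants had 367.3, 57.6 and 745.2 CPM unlesioned and 148.2, 330.0 and 288.1 CPM at 4dpl. The highest unlesioned value was 7.42 times the lowest in controls and 12.9 times in mutants, and the low ones were control replicate 1 and mutant replicate 2. The log2 difference was -0.68 (SE 0.77, adjusted p = 0.539) in controls and -0.61 (SE 0.77, adjusted p = 0.582) in mutants. With the replicate block these were -0.38 and -0.22. Leaving out single libraries moved the value of controls between -1.20 (without control 4dpl replicate 2) and -0.30 (without control unlesioned replicate 3) and that of mutants between -1.11 (without mutant unlesioned replicate 2) and 0.27 (without mutant unlesioned replicate 3), uncalled in every fit. On the other strand, Gm26906 shares 1228 bases with the exons of Meg3, and the strand setting of the counting is not given in the sources used here.

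Rian, a host of C/D snoRNAs and microRNAs in the same cluster, fell. In controls it was at 4.11, 18.9 and 19.1 CPM unlesioned and at 5.23, 12.5 and 5.04 CPM at 4dpl. In mutants it was at 9.73, 7.18 and 23.2 CPM unlesioned and at 2.86, 6.47 and 4.37 CPM at 4dpl. In the mutants all 3 values at 4dpl lay below all 3 unlesioned ones, and in the controls the groups overlapped, with unlesioned replicate 1 the lowest of its genotype. Over both genotypes the log2 difference was -1.22 (SE 0.41, adjusted p = 0.0305), or 2.32-fold lower at 4dpl. The difference was -0.88 (SE 0.57, adjusted p = 0.281) in controls and -1.55 (SE 0.59, adjusted p = 0.0967) in mutants, and the 2 did not differ past the test (-0.67, SE 0.81). DESeq2 called the difference in mutants at -1.70 (adjusted p = 0.0293).

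The unadjusted p of Rian lay just under the threshold of 0.01. When each library was left out in turn, it remained called in 4 of 12 fits, with differences from -1.47 to -0.87. It was lost without control unlesioned replicate 2 (-1.06, adjusted p = 0.0738) or 3 (-1.06, 0.0736), without control 4dpl replicate 1 (-1.08, 0.0699) or 3 (-1.14, 0.0548), without mutant unlesioned replicate 1 (-1.28, 0.0312, with a p of 0.0101) or 3 (-0.87, 0.102), and without mutant 4dpl replicate 1 (-1.07, 0.0650) or 3 (-1.17, 0.0588).

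The rest of the cluster was not called. Mirg, the next noncoding unit along the cluster and a microRNA host, was at 1.35, 5.52 and 7.58 CPM in unlesioned controls and 1.45, 5.24 and 1.34 CPM at 4dpl, and at 3.17, 1.99 and 6.09 CPM in unlesioned mutants and 1.09, 2.68 and 2.21 CPM at 4dpl. Its mean difference was -0.88 (SE 0.47, adjusted p = 0.138). The paternally expressed coding genes Rtl1 (-0.51) and Dlk1 (-0.08) were not called either, and Dio3 and its antisense RNA Dio3os were too low to be tested. Of the 7 genes of the cluster, 5 were tested, with Rian as the only call and a median of -0.64, which was -0.30 with the replicate block.

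Miat followed Meg3 from library to library. Unlesioned controls had 1.26, 11.01 and 10.5 CPM and controls at 4dpl 2.36, 9.35 and 4.97 CPM, while unlesioned mutants had 4.51, 1.31 and 11.7 CPM and mutants at 4dpl 2.82, 5.56 and 4.62 CPM. The same control unlesioned replicate 1 and mutant unlesioned replicate 2 were lowest, at an 8.75-fold and 8.94-fold distance from the highest of their groups. The difference over both genotypes was -0.44 (SE 0.54, adjusted p = 0.521), and -0.12 with the replicate block. Of the exon bases of Miat, 30.4% are shared with other annotated genes, 2260 bases of them with Gm26953 on the other strand. Among 4 proteins known to bind Miat, Sf1, which recognizes the TACTAAC letters printed above, rose by 0.65 (adjusted p = 0.0154) and Srsf1 by 0.51, while Qk, the RNA-binding protein quaking of myelinating cells, was at 0.47 (adjusted p = 0.113) and Celf3 at -0.68 (adjusted p = 0.118). With RLE size factors 1 of the 4 was called.

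Over the 12 libraries Meg3 and Miat had a Pearson's r of 0.98 on the log2 CPM scale, and the ratio of Miat to Meg3 in CPM stayed between 0.0123 and 0.0228. Among 13616 genes, those most like Meg3 were Mir124a-1hg (0.98), host of a microRNA of neurons, Miat and Tro (0.97), and those most like Miat were Meg3, Mir124a-1hg and Iqsec3 (0.95), a protein of inhibitory synapses. Rian was nearest to A230103L15Rik (0.95), Mirg (0.95) and C78859 (0.95), with Meg3 at 0.75, and the ratio of Rian to Meg3 in CPM moved between 0.0152 and 0.125. These correlations describe libraries that share condition and depth. Mir124a-1hg itself was at 1.71, 8.80 and 8.73 CPM in unlesioned controls, 2.06, 7.25 and 3.45 CPM at 4dpl, 5.40, 1.05 and 9.97 CPM in unlesioned mutants and 1.73, 4.56 and 3.51 CPM at 4dpl, which again put control replicate 1 and mutant replicate 2 lowest among the unlesioned.

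**Figure D3:**
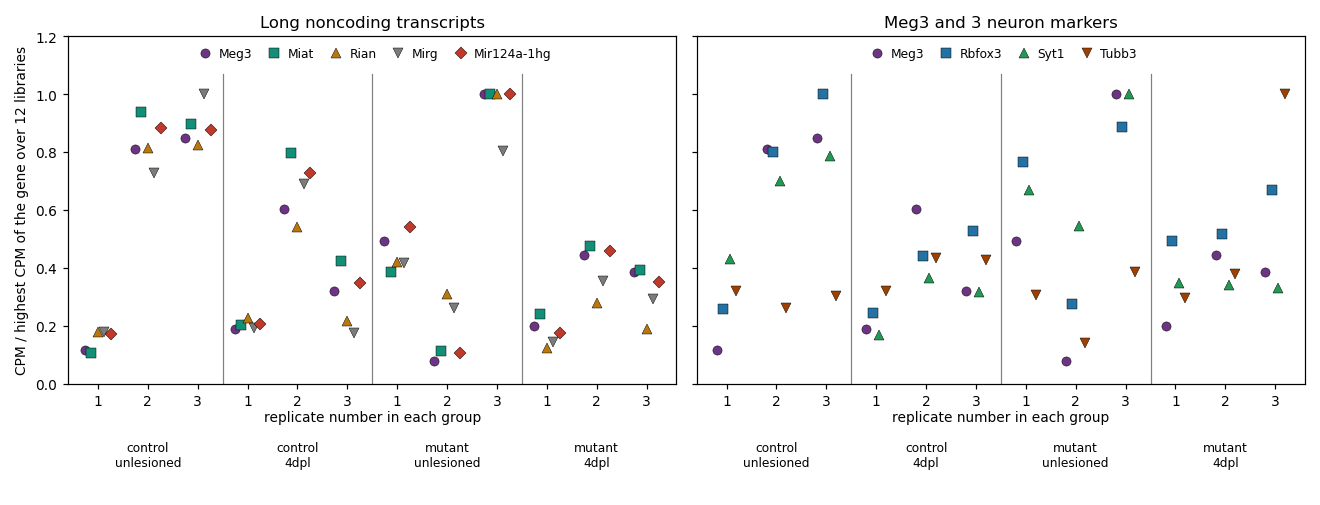
Level of each gene in each of the 12 libraries (x axis) as a share of its highest value (y axis, CPM divided by the highest CPM of that gene). The left panel plots Meg3, Miat, Rian, Mirg and Mir124a-1hg and the right panel Meg3 with Rbfox3, Syt1 and Tubb3; Meg3, Miat and Mir124a-1hg are all lowest in the same pair of unlesioned libraries, control replicate 1 and mutant replicate 2, whereas Tubb3 is low in the latter only.

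Neuronal markers were set beside these RNAs. All 12 were counted in every library, and their summed CPM ranged from 96.5 to 151.3 in unlesioned controls, from 130.8 to 184.6 in controls at 4dpl, from 107.8 to 173.4 in unlesioned mutants and from 145.6 to 270.3 in mutants at 4dpl. None of the 12 rose and 1 fell over both genotypes, with a median difference of -0.02; with the replicate block 2 rose and 1 fell. The 1 that fell was Syt1, a calcium sensor of synaptic vesicles, at -1.15 (SE 0.26, adjusted p = 0.00621) with all 6 libraries at 4dpl below all 6 unlesioned. Tubb3, a tubulin of neurons and the highest of the list, was at 0.71 (adjusted p = 0.0646), and Rbfox3, the antigen NeuN, at -0.48 (adjusted p = 0.265). Rbfox3 was at 3.25 CPM in control unlesioned replicate 1 and 3.47 in mutant unlesioned replicate 2, and between 9.67 and 12.6 in the other 4 unlesioned libraries, which is the division seen in Meg3; Tubb3 had 44.1 and 19.3 CPM in that pair and between 35.9 and 53.0 in the other 4. Control unlesioned replicate 1 was the lowest of its group in 11 of the 12 markers. In the unlesioned mutants, replicates 1 and 2 were each the lowest in 6 of the 12. Control replicate 1 and mutant replicate 2 were both lowest in 5 (Gad1, Map2, Nefm, Rbfox3 and Syt1), so the list as a whole did not follow the division seen in Meg3. Syt1 and Rbfox3 were named after their values were seen. The part of neuronal RNA in the differences of Meg3, Miat and Rian was not tested.

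Gas5 varied little within a group. It stood at 104.1, 112.3 and 122.9 CPM in unlesioned controls and at 119.6, 125.6 and 138.0 CPM in controls at 4dpl, so these groups overlapped. It stood at 91.3, 83.0 and 90.2 CPM in unlesioned mutants and at 115.3, 127.6 and 128.8 CPM in mutants at 4dpl, and these did not overlap. The log2 difference was 0.18 (SE 0.19, adjusted p = 0.512) in controls, 0.49 (SE 0.19, adjusted p = 0.0996) in mutants and 0.33 (SE 0.13, adjusted p = 0.0574) over both, so no call was made. The highest value of a group was at most 1.18 times the lowest. Of its exon bases 17.8% are shared with other genes, 10 snoRNA genes among them.

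Other hosts of snoRNAs, which like Gas5 are spliced to release them, were mostly uncalled. Of 20 listed, 17 were found and tested. Over both genotypes 2 rose and none fell: Snhg15 by 0.61 (adjusted p = 0.0142) and Snhg6 by 0.56 (adjusted p = 0.0183). The median of the list was 0.09, and -0.01 with RLE size factors, under which 1 was called. Snhg11, a host found in neurons, had the widest spread, from 9.3 CPM in mutant unlesioned replicate 2 to 185 in mutant unlesioned replicate 3.

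Factors that act on Gas5 or that it acts on gave few calls. Among 10 factors of nonsense-mediated decay, Smg5 rose by 0.53 (adjusted p = 0.0233) and the other 9 were not called, with a median of 0.16; with RLE size factors and with DESeq2 none was called. Among the glucocorticoid receptor and 9 of its target genes, 2 rose: Sgk1, a kinase of ion transport and survival, by 1.08 (SE 0.29, adjusted p = 0.0129), and Errfi1, an inhibitor of EGF receptor signalling, by 0.66 (SE 0.17, adjusted p = 0.0108). The receptor gene Nr3c1 was at 0.28 (adjusted p = 0.128), and Fkbp5 and Tsc22d3, targets that are commonly read as a measure of receptor activity, were at 0.16 each.

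Pvt1 rose after the lesion. Its control libraries were at 7.38, 6.14 and 8.11 CPM unlesioned and at 11.8, 11.3 and 13.8 CPM at 4dpl. Its mutant libraries were at 8.25, 3.71 and 6.18 CPM unlesioned and at 12.44, 8.72 and 11.3 CPM at 4dpl. All 6 values at 4dpl were above all 6 unlesioned values, as for 7.44% of all genes tested, with mutant 4dpl replicate 2 the lowest at 4dpl and mutant unlesioned replicate 1 the highest unlesioned. The log2 difference over both genotypes was 0.80 (SE 0.21, adjusted p = 0.0107), or 1.74-fold. It was 0.77 (SE 0.29, adjusted p = 0.0914) in controls and 0.84 (SE 0.29, adjusted p = 0.0845) in mutants, neither of them called alone, and the 2 differed by 0.07 (SE 0.41). The call remained in all 12 fits that left out a library, with differences from 0.69 to 0.97, and was lost when a gene had to have at least 10 counts in every library to be tested (0.52, adjusted p = 0.0718).

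Myc, the transcription factor that lies next to Pvt1 on chromosome 15, rose by 0.80 over both genotypes (SE 0.18, adjusted p = 0.00635). It stood at 25.9, 19.04 and 17.8 CPM in unlesioned controls and 36.9, 42.6 and 39.6 CPM at 4dpl, without overlap, and it was called in controls (0.92, adjusted p = 0.0426). In mutants it stood at 24.03, 16.6 and 13.6 CPM unlesioned and 35.9, 22.9 and 28.5 CPM at 4dpl, with overlap and no call (0.69, adjusted p = 0.0935). The genes nearest to Pvt1 in pattern were Plbd2, Galnt7 and Oplah (each 0.97 over 12 libraries). Gsdmc, a pore-forming gasdermin on the same chromosome, was uncalled at -1.97 (adjusted p = 0.0625). Beside Pvt1 the summed markers of microglia and macrophages were also higher at 4dpl, at 30750 to 34752 CPM against 13484 to 20871 in controls and 19333 to 33525 against 13136 to 20019 in mutants; all 10 were counted in every library, and their part in the rise was not tested.

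Dleu2 was not called in any comparison. The control libraries were at 33.7, 38.8 and 36.0 CPM unlesioned and at 29.9, 31.8 and 31.0 CPM at 4dpl, with every value at 4dpl below every unlesioned one. The mutant libraries were at 32.8, 32.9 and 31.9 CPM unlesioned and at 32.7, 43.9 and 23.8 CPM at 4dpl, with the unlesioned values inside the range of the others. The difference was -0.23 (SE 0.22, adjusted p = 0.465) in controls, 0.04 (SE 0.22, adjusted p = 0.907) in mutants and -0.09 (SE 0.15, adjusted p = 0.641) over both. Spryd7, which lies near Dleu2 on chromosome 14, was the largest rise among the 7 listed neighbours of Pvt1 and Dleu2: it was at 19.5, 13.2 and 19.8 CPM in unlesioned controls and 39.1, 32.8 and 42.7 CPM at 4dpl, and at 24.9, 9.08 and 16.3 CPM in unlesioned mutants and 34.4, 36.2 and 45.7 CPM at 4dpl. That was a difference of 1.17 (SE 0.22, adjusted p = 0.00378) without overlap. Trim13, a ubiquitin ligase beside it, was at 0.69 with an adjusted p of 0.038 but an unadjusted p of 0.0138, so it was not called. Myc and Spryd7 were the 2 calls among the 7, and Kcnrg, Dleu7 and Rnaseh2b were at -0.06, 0.48 and 0.24.

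Non-overlap of the 3 and 3 libraries of a genotype was frequent after the lesion. In controls it was seen for Pvt1 (higher) and Dleu2 (lower), 2 of the 8, beside 37.9% of all genes tested (16.5% higher and 21.4% lower). In mutants it was seen for Gas5 and Pvt1 (higher) and Rian (lower), 3 of the 8, beside 42.0% of all genes tested (18.8% higher and 23.2% lower). Neither share exceeds that of all genes.

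The genotypes were then compared in unlesioned tissue and at 4dpl, which asks what loss of Tet1 in the Olig1 lineage does to these RNAs. None of the 8 was called by edgeR in either, where 0.0% of all genes were. None passed at an unadjusted p under 0.05 in edgeR, beside 5.22% of all genes in unlesioned tissue and 6.92% at 4dpl. DESeq2 called 0 of the 8, beside 0.141% and 0.736%, and in unlesioned tissue 1 of the 8, Gas5, had an unadjusted p under 0.05 in it. In unlesioned tissue all 8 log2 differences, mutant minus control, were below 0, from -0.40 for Neat1 to -0.07 for Rian, with a median of -0.27 against 0.02 over all genes. Long noncoding genes with a mean log2 CPM of at least 2, a class that holds all 8, had a median of -0.13, with 38.0% above 0. With the replicate block Meg3 (0.16) and Rian (0.13) were above 0. So were Meg3, Miat, Pvt1 and Rian in some fits that left out a library. Gas5 was lower in all 3 mutant libraries than in all 3 controls (113.1 ± 9.39 CPM in controls and 88.2 ± 4.50 in mutants, SD, n = 3 each), a difference of -0.36 (SE 0.19, adjusted p = 0.993). Dleu2 was also lower without overlap (36.2 ± 2.59 CPM and 32.5 ± 0.525, SD, n = 3 each), at -0.15 (SE 0.22, adjusted p = 1). These 2 of 8 stand beside 6.28% of all genes tested that were lower in mutants without overlap.

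Of the 17 snoRNA hosts, 5 were lower without overlap in the unlesioned mutants: Gas5, Snhg8 (-0.37), Snhg6 (-0.41), Snhg15 (-0.64) and Epb41l4aos (-0.73). None was called, and the median of the list was -0.31. At 4dpl the 8 RNAs overlapped between genotypes in every case, as did all but 12.8% of all genes. Their differences ran from -0.74 for Rian (-0.17 without control 4dpl replicate 2) to 0.37 for Malat1, and the median was -0.08 against 0.05 over all genes. Gas5, at 127.7 ± 9.38 CPM in controls and 123.9 ± 7.49 in mutants (SD, n = 3 each), differed by -0.04.

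Whether the change after lesion differed between genotypes was tested as an interaction. None of the 8 passed (adjusted p = 0.9999 each), 0 passed at an unadjusted p under 0.05 in edgeR, and DESeq2 called 0; over all genes the shares were 0.0% in edgeR, 3.81% and 0.0%. Rian was at -0.67 (SE 0.81), Malat1 at 0.66 (SE 0.50), Neat1 at 0.44 and Gas5 at 0.32 (SE 0.27). Leaving out single libraries moved Rian between -0.997 and -0.012, the latter without mutant unlesioned replicate 3, and Malat1 between 0.39 and 0.90, so their order rests on single libraries.

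The long noncoding genes as a class were then described. Of the 7706 tested, 52 rose and 2110 fell (28.1% called), with a median of -1.15. That fall was carried by scarce genes: of 6246 with a mean log2 CPM below 0, 7 rose and 1960 fell, and of 5077 protein-coding genes as scarce, 18 rose and 2032 fell. Among the 316 long noncoding genes with a mean log2 CPM of at least 2, 28 rose and 9 fell, with a median of 0.05, and of the 32 at or above 5, 8 rose and none fell. Long noncoding genes took 1.11% to 2.53% of counts in unlesioned libraries and 0.914% to 1.18% at 4dpl. The 8 RNAs took 0.184% to 0.539% and 0.195% to 0.270%, so that their ranges overlapped. Depth and the number of genes with a count moved with the same contrast, and their part in the fall of scarce genes was not tested.

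**Figure D4:**
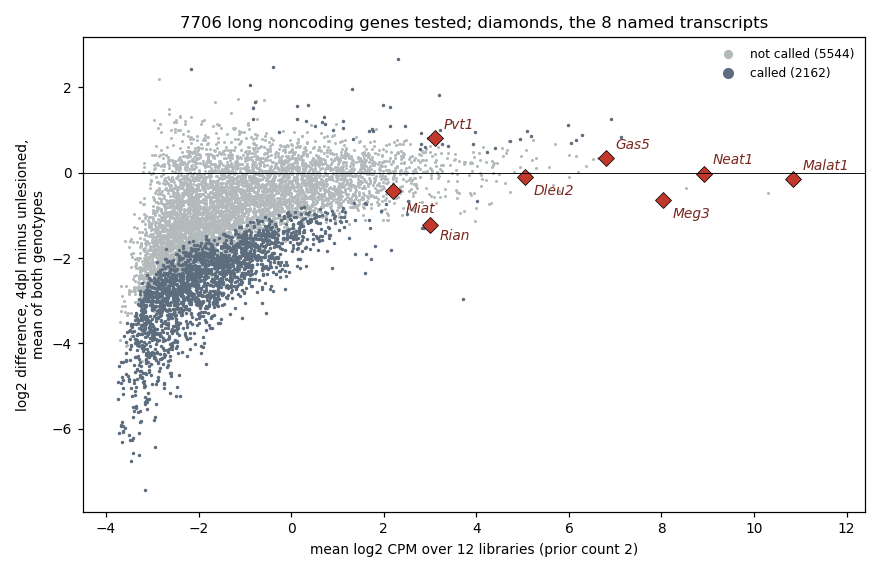
Mean log2 CPM over the 12 libraries (x axis) and log2 difference between 4dpl and unlesioned tissue, mean of both genotypes (y axis), for the 7706 long noncoding genes tested. Coloured points are the 2162 called genes, grey points the 5544 that were not and diamonds the 8 RNAs, which lie to the right of most genes, where the differences are centred near 0.

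From a list of 30 other long noncoding RNAs known from the nervous system or from imprinting, 28 were tested, and 3 rose and 2 fell, with a median of 0.09 that turned to -0.01 under RLE size factors. 2900097C17Rik rose by 0.88 (adjusted p = 0.00965), Firre, an RNA that organizes nuclear architecture, by 0.74 (adjusted p = 0.0216), and Tug1, an abundant RNA of nucleus and cytoplasm, by 0.70 (adjusted p = 0.0189). Dlx6os1, an RNA of the Dlx5 and Dlx6 locus that marks inhibitory neurons of the forebrain, fell by 3.49 (adjusted p = 0.00617), and Nespas, the antisense RNA of the imprinted Gnas locus, by 2.30 (adjusted p = 0.0227). Both were scarce, with group means of at most 1.13 CPM for Dlx6os1 and 0.66 CPM for Nespas, and scarce genes as a class fell, as described above.

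Between other pairs of members the likeness was lower than between Meg3 and Miat. Malat1 and Meg3 had a Pearson's r of 0.76, Miat and Rian 0.76, Gas5 and Pvt1 0.80, and Rian and Pvt1 -0.45, as descriptions over 12 libraries. Among other genes, Malat1 was nearest to Luc7l3 (0.98), a splicing factor, then Dnm3os (0.90) and Gm38056 (0.90). Gas5 was nearest to Ndufc2 (0.95) and Ndufb5 (0.95), subunits of mitochondrial complex I, and to Hint2 (0.95). The nearest gene to Dleu2 was Tra2a (0.83), a splicing regulator, and to Neat1 ENSMUSG00000074873 (0.85), followed by Gata3 (0.83).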

How the data were processed

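RNA from Percoll-enriched spinal cord cells was sequenced in 12 libraries (3 per group, as grouped by the labels). The authors aligned reads to mm10 and to ribosomal and mitochondrial sequence, counted reads on exons of Ensembl genes and deposited the counts per gene without normalization; 37 mitochondrial genes were at 0 in every library. The paper names BWA and the submitters' processing notes name STAR. Depth is ample for the 8 RNAs, and each group has only 3 libraries. What sets the precision was not tested.

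Counts were fitted in R 4.3.3 with edgeR 4.0.16: filterByExpr, TMM factors (0.8063 to 1.3022), one model with 4 group means over all 12 libraries, glmQLFit and glmQLFTest. Calls needed p under 0.01 and Benjamini-Hochberg adjusted p under 0.05 over 31109 genes. The mean lesion difference averages both genotypes. SE came from the fold change and F statistic. Likeness used log2 CPM with a prior count of 2. Symbols, exon lengths (union of exons) and overlaps came from GENCODE M21 on GRCm38, and promoters and microRNAs from RefSeq on GRCm38.p6. The fits were tested on simulated data, in which 188 of 29295 genes were changed by 3 on the log2 scale in controls. edgeR recovered 59.6% in that comparison, and 41.5% in the mean comparison, where the change is 1.5, with 3 and 9 false calls. DESeq2 recovered 75.5% and 54.3%, with 41 and 39 false calls. In mutants, where nothing was changed, DESeq2 made 8 false calls and edgeR 0. For the interaction edgeR recovered 37.2% and DESeq2 54.3%. A change as broad as the 32.8% of genes called here was not simulated.

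The 8 RNAs and all lists were chosen with earlier results of these data known. The genes named are all members, up to 4 genes of each list with the smallest p in the mean lesion comparison, all genes of the Dlk1-Dio3 and neighbour lists, the highest marker of each cell type and the 3 genes with a mean log2 CPM of at least 1 most like each member. Not every gene of this rule is printed, and 1 neighbour of Malat1 and Neat1 is not reported here. Sfpq, Fkbp5, Tsc22d3, Snhg11, the hosts lower in unlesioned mutants, Syt1, Rbfox3 and Nespas were named after their values were seen. Same-numbered control libraries deviated together (correlations of 0.323, 0.215 and 0.314 over 13616 genes). Same-numbered libraries of different genotypes, which cannot share a mouse, ranged from -0.0768 (unlesioned, number 1) to 0.218 (4dpl, number 2). No correlation of differently numbered libraries is at hand as a reference, so the check cannot show that the numbers mark pairs. The study's sample table also numbers the libraries of some groups differently from the labels. A fit with the replicate block is given as an alternative. Other alternatives were DESeq2 1.42.0, RLE size factors, no filter, at least 10 counts in every library, the compared groups only and leaving out each library.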

Additional observations from a re-analysis of the deposited data

How the results depend on the processing

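Of the log2 differences of the 8 RNAs, 246 kept direction and side of the threshold under the other settings, 24 reversed, 1 became called and 1 was lost; none of the reversed ones had been called. The cause of the changes was not tested. RLE size factors moved the median of all genes by -0.10 in the mean lesion comparison and -0.14 in mutants. In controls, Gas5 was -0.10 with at least 10 counts in every library. In mutants, with that filter, Malat1 was -0.11, Neat1 -0.089 and Dleu2 -0.27, and with the compared groups only -0.043, -0.030 and -0.19; Dleu2 was also -0.10 with DESeq2, -0.10 with RLE and -0.0027 with the replicate block. In the mean lesion comparison, Neat1 was 0.058 without a filter and 0.027 with the block, and Dleu2 0.0025 without a filter. Between unlesioned genotypes, the block gave 0.16 for Meg3 and 0.13 for Rian. At 4dpl Neat1 was -0.0027 with DESeq2 or RLE and -0.046 without a filter. The interaction was -0.0025 for Meg3 with DESeq2 or RLE, -0.054 and -0.053 for Miat, and -0.016 for Miat and -0.0033 for Pvt1 without a filter.

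Counts of called genes moved more. In controls edgeR called 3150, DESeq2 6996, the stricter filter 1295 and the compared groups 1162. In mutants edgeR called 42, DESeq2 5295, no filter 947, the compared groups 772 and the block 4 (same-numbered mutant libraries correlated at 0.202, 0.321 and 0.0667). In the mean comparison edgeR called 10194 and the stricter filter 3591; DESeq2 split its calls 4074 higher and 8191 lower, against 4423 and 5771. Between genotypes, where edgeR called 0, DESeq2 called 44 unlesioned and 229 at 4dpl, and no filter 9 and 4. Of the 8 RNAs, DESeq2 called 1 in mutants against 0, and the stricter filter 1 in the mean comparison against 2. With the replicate block Rian was -1.09 (adjusted p = 0.0261) and Pvt1 0.83 (0.00655), and no call among the 8 changed.

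Leaving out each library gave 1 to 7401 called genes in controls (7401, 1 and 114 with unlesioned control 1, 2 or 3 left out, 4, 2 and 1839 with control 1, 2 or 3 at 4dpl left out, 880 with unlesioned mutant 3 and 2021 with mutant 2 at 4dpl left out), 0 to 4498 in mutants (4498 with unlesioned control 1 and 3430 with unlesioned mutant 1 left out, 0 with any of 5 other mutant libraries and 1 and 83 with control 2 and 3 at 4dpl left out), 7690 to 12873 in the mean, 0 to 1 between unlesioned genotypes and 0 to 48 at 4dpl (48 with unlesioned control 1 left out). Of the 8 RNAs, 0 to 1 were called in mutants, Rian with unlesioned control 1 left out and Pvt1 with unlesioned mutant 1 left out, and 1 to 2 in the mean. Uncalled differences that changed sign ranged as follows. In mutants they were -0.18 to 0.26 (Dleu2), -0.069 to 0.41 (Malat1), -1.11 to 0.27 (Meg3) and -0.89 to 0.58 (Miat). In the mean they were -0.19 to 0.028 (Dleu2), -0.72 to 0.073 (Miat) and -0.11 to 0.26 (Neat1). Between unlesioned genotypes they were -1.04 to 0.34 (Meg3), -1.37 to 0.10 (Miat), -0.55 to 0.0055 (Pvt1) and -0.73 to 0.23 (Rian). At 4dpl they were -0.13 to 0.31 (Dleu2), -0.090 to 0.0061 (Gas5), -0.43 to 0.44 (Meg3), -0.73 to 0.24 (Miat) and -0.17 to 0.22 (Neat1). For the interaction they were -0.45 to 0.93 (Meg3), -0.46 to 1.01 (Miat) and -0.19 to 0.37 (Pvt1).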
